A study of Homo sapiens with 18 samples.

Results

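The comparison set K562 cells carrying the repressor dCas9-KRAB and a guide RNA named CR4, aimed at the HS2 enhancer of the globin genes, against K562 cells carrying dCas9-KRAB with no guide. Its members are the 3 libraries titled as dCas9-KRAB with the HS2 guide CR4 (KRAB_CR4) and the 3 titled as dCas9-KRAB alone (KRAB_no_gRNA), 6 of the 18 RNA-seq libraries of the study. K562 is a human leukaemia line with features of early red cells, and it makes embryonic and fetal globin. Both groups share the lentiviral dCas9-KRAB transgene, polybrene at 4 µg/ml during transduction, and puromycin at 1 µg/ml from about 96 hours after it. They differ by the guide. The other lentiviral groups, also of 3 libraries each, were dCas9 without the repressor domain with guide CR4 (dCas9_CR4), dCas9 with a second HS2 guide (dCas9_CR10) and dCas9-KRAB with that guide (KRAB_CR10). The labels do not name a promoter for the transgene, a clone, or separate cultures, so p-values measure the spread between these libraries, which may be technical. A guide aimed outside HS2 was not analysed here.

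dCas9 is a Cas9 protein that can no longer cut and is carried to DNA by its guide. The KRAB domain recruits TRIM28 (KAP1) and, through it, SETDB1, which lays down the repressive mark H3K9me3, and HP1 proteins, which bind that mark. HS2 is a DNase-hypersensitive site of the locus control region, which lies next to HBE1 at the far end of the beta-globin cluster from HBB and acts on the genes of that cluster. The genes of the cluster stand on chromosome 11 in the order HBE1 (embryonic epsilon-globin), HBG2 and HBG1 (fetal gamma-globins), HBBP1 (a transcribed pseudogene), HBD (adult delta-globin) and HBB (adult beta-globin). The alpha-like globins that pair with their products are encoded on chromosome 16, under another enhancer.

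The genes on which the comparison turns resemble each other in sequence, which bears on how far counts can be given to 1 of them. Coding bases 380 to 440 of 444 are shown from the GENCODE v29 transcripts matched by accession, 5′ to 3′, with the 13 positions at which the 3 differ in capitals.
HBE1: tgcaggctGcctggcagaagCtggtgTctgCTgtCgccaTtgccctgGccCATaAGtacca
HBG2: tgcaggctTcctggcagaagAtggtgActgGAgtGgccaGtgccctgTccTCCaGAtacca
HBG1: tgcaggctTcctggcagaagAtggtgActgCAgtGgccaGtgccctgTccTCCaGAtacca
The coding sequences of HBG2 and HBG1 differed at 2 bases (99.5% identity), 1 of which lies in this window. That of HBE1 differed from each of them at 73 bases (83.6% identity). HBE1 and gamma-globin reads can thus be told apart at many positions, whereas the split between HBG1 and HBG2 is uncertain and rests on how shared reads were counted, which is not given in the sources used here.

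The 6 libraries held 23529200 to 26909800 counts. All counts were even, so each fragment appears to have been counted as its 2 mates. Across the 15 lentiviral libraries, those numbered 3 stood apart: the first principal component took 59.5% of the variance, with libraries numbered 3 at 20.1 to 31.5 and the others at -23.3 to -4.16. Same-numbered libraries deviated together, so values with the library number as a block are given where they change a call. KRAB_CR4 library 2 was richer in ribosomal RNA than the other 5 libraries, at 4.02% of its counts against 0.57% to 1.20%, and the call count was 4 with or without those rows. Levels are given as counts per total of a library, scaled to a fixed total and by TMM (CPM), and they compare 1 gene between libraries, not genes with each other. Red cell markers were present in all 6 (GATA1 at 188 to 241 CPM). The summed level of 14 markers of other cell types was 159 to 174 in KRAB_CR4 and 149 to 188 in KRAB_no_gRNA. Of these markers EPCAM reached 100.3 CPM, COL1A2 40.8 CPM, LYZ 26.8 CPM, PECAM1 18.4 CPM and CD3D 7.02 CPM. MS4A1, ELANE and KRT5 were at 0 in all 6 libraries.

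Embryonic and fetal globin RNA fell in the cells with guide CR4. At an adjusted p under 0.05 there were 4 genes that passed, 0.0274% of the 14599 tested, and all 4 belong to the beta-globin cluster: HBE1, HBG2, HBG1 and HBBP1. HBE1 fell 7.38-fold, HBBP1 5.37-fold, HBG2 3.82-fold and HBG1 3.24-fold. HBD, the cluster's delta-globin gene, was 3.25-fold lower, did not pass in this fit, and passed with the library number as a block. Without the block no gene passed in the higher direction with edgeR or with DESeq2, and with it 1 did in edgeR, ACSM3. In the lower direction DESeq2 without the block added SERPINB8, a gene outside the cluster. In edgeR without the block 144 genes (0.986%) were higher and 156 (1.07%) lower at an unadjusted p under 0.05, together 2.05% of the genes, which became 8.66% with the block.

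HBE1, the epsilon chain of embryonic haemoglobin, stood at 55.3, 68.5 and 61.6 CPM in KRAB_CR4 libraries 1 to 3 and at 432, 468 and 469.7 CPM in those without a guide. The highest library with the guide lay far below the lowest without it. The log2 fold change was -2.88 ± 0.14 (SE, n = 3 per group, 95% interval -3.19 to -2.58, edgeR quasi-likelihood test, adjusted p = 3.86e-08), which left 13.5% of the level without a guide. Between same-numbered libraries the log2 difference was -2.96, -2.77 and -2.93. In bulk RNA a fall in every cell and a larger fall in some of the cells cannot be told apart, nor can fewer cells of a type and less RNA per cell.

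HBG2, the upstream gamma-globin gene, stood at 243, 260.0 and 218 CPM with the guide and at 891, 956 and 908 CPM without it. Its log2 fold change was -1.93 ± 0.14 (SE, n = 3 per group, 95% interval -2.23 to -1.64, edgeR adjusted p = 4.40e-06), which left 26.2%. HBG1, its near-identical copy, stood at 251, 281 and 240.5 CPM with the guide and at 808, 871 and 825 CPM without it. Its log2 fold change was -1.70 ± 0.13 (SE, n = 3 per group, 95% interval -1.98 to -1.41, edgeR adjusted p = 1.17e-05), which left 30.8%. For both genes the groups were well apart and the libraries within each group lay close together.

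HBBP1, the pseudogene between the fetal and adult genes, gave 5.05, 4.98 and 2.89 CPM with the guide and 22.6, 23.8 and 23.0 CPM without it. KRAB_CR4 library 3 was the lowest of the 6, and the groups did not overlap. The log2 fold change was -2.43 ± 0.23 (SE, n = 3 per group, 95% interval -2.92 to -1.94, edgeR adjusted p = 9.48e-05). With the 3 untransduced libraries added to the fit the log2 fold change was the same at -2.43 but the adjusted p was 0.241.

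HBD gave 4.62, 5.51 and 2.48 CPM with the guide and 12.9, 17.7 and 10.3 CPM without it. The groups did not overlap, and number 3 was lowest and number 2 highest in both. Its log2 fold change was -1.70 ± 0.46 (SE, n = 3 per group, 95% interval -2.68 to -0.71, edgeR adjusted p = 1.00). With the library number as a block it was -1.75 ± 0.18 (SE, n = 3 per group, edgeR adjusted p = 7.92e-06), and the count of genes that passed became 6 (0.0411%), of which 5 were lower (0.0342%). In libraries 1 and 2 of each group alone HBD also passed without a block (edgeR adjusted p = 0.021). With the 3 untransduced libraries in the blocked fit it did not pass (-1.75, edgeR adjusted p = 0.999).

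HBB, the main globin gene of adult red cells, is nearly silent in K562. It had 38 counts over the 6 libraries, at 0.086, 0.356 and 0.083 CPM with the guide and 0.321, 0.380 and 0.309 CPM without it. The groups overlapped, and the log2 fold change of -0.94 ± 0.70 (SE, n = 3 per group, 95% interval -2.44 to 0.55) did not pass. Leaving out 1 library at a time moved HBB between -1.94, without KRAB_CR4 library 2, and -0.61, without KRAB_CR4 library 3. At this depth neither a fall as large as that of HBG1 nor no change at all lies outside the interval.

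**Figure D1:**
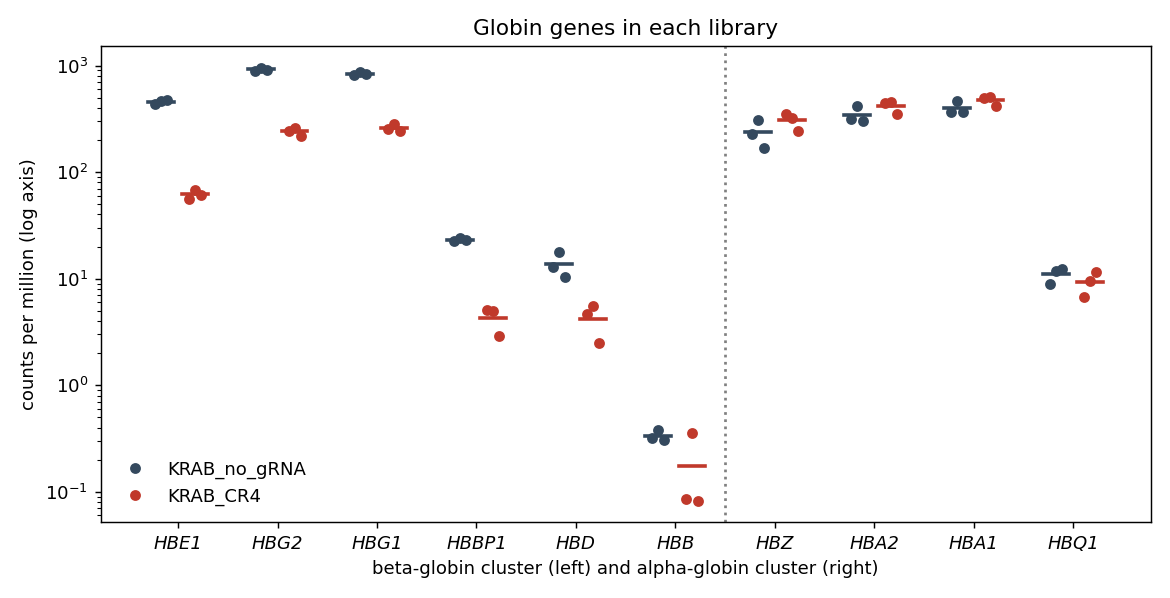
Level of each globin gene in CPM (log axis) in the 3 libraries without a guide (dark) and the 3 with guide CR4 (red). Each point is a library and each bar the group mean. HBE1, HBG2, HBG1, HBBP1 and HBD do not overlap between groups, while HBB and the alpha-like genes on the right do.

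The alpha-like globins were not lower with the guide in any call. HBZ, the embryonic zeta chain, stood at 351, 319.8 and 244 CPM with the guide and at 228, 309 and 169 CPM without it, and the groups overlapped. HBA2 stood at 441, 453 and 352 CPM against 312, 419 and 301 CPM, with overlap as well. HBA1 stood at 499, 503 and 419 CPM against 364, 464 and 363 CPM, again with overlap. HBQ1, the little-expressed theta gene, averaged 9.26 ± 2.41 CPM against 11.1 ± 1.88 CPM (SD, n = 3). HBM had too few counts to test. The log2 fold changes were 0.37 ± 0.25, 0.27 ± 0.17, 0.25 ± 0.16 and -0.26 ± 0.22 (SE) for HBZ, HBA2, HBA1 and HBQ1, and none passed the edgeR test. The 95% intervals of all 4 lay within 2-fold. In each numbered pair HBZ (0.62, 0.05 and 0.53), HBA2 (0.50, 0.11 and 0.23) and HBA1 (0.45, 0.12 and 0.21) were higher with the guide on the log2 scale. With the library number as a block the 95% intervals were 0.15 to 0.64 for HBZ, 0.07 to 0.49 for HBA2 and 0.06 to 0.46 for HBA1, and none passed (edgeR adjusted p = 0.361, 0.441 and 0.450).

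Summed over the 6 tested genes, RNA of the beta cluster was 568 ± 47.8 CPM with the guide and 2247 ± 85.5 CPM without it (SD, n = 3), a 3.96-fold difference. The alpha-like sum was 1204 ± 153 CPM against 987 ± 191 CPM (SD, n = 3), and the groups overlapped. In libraries 1 to 3 it was 1298, 1286 and 1027 CPM against 913, 1204 and 845 CPM, higher with the guide in each numbered pair. The ratio of the 2 sums was 0.431, 0.482 and 0.512 with the guide and 2.37, 1.94 and 2.65 without it. Beta-like counts thus exceeded alpha-like counts in each library without a guide and were below them in each library with it. The mean ratio was 4.86-fold lower with the guide (exact 2-sided permutation test, p = 0.1, the smallest that 3 libraries against 3 allow, BH-adjusted p = 0.125 over 5 such measures). The permutation tests of these measures did not use the library numbers as pairs.

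The proportions between genes of the cluster also had other values with the guide, and the 95% interval of HBE1 lay below those of HBG2 and HBG1. The level of HBE1 over the summed level of HBG1 and HBG2 was 0.112, 0.127 and 0.134 with the guide and 0.254, 0.256 and 0.271 without it. The groups were apart, at means of 0.124 ± 0.011 and 0.260 ± 0.009 (SD, n = 3), a 2.10-fold difference (exact 2-sided permutation test, p = 0.1, BH-adjusted p = 0.125). HBE1 made up 9.88% to 11.7% of the summed cluster with the guide and 19.9% to 20.995% without it. HBG1 over HBG2, a ratio chosen after its values were seen, was 1.03 to 1.10 with the guide and 0.906 to 0.910 without it (exact 2-sided permutation test, p = 0.1, BH-adjusted p = 0.125). HBG1 over HBG2 was 1.00 to 1.05 in KRAB_CR10, 0.914 to 0.925 in dCas9_CR4 and 0.920 to 0.927 in dCas9_CR10, so the higher values were not particular to KRAB_CR4. Because these 2 genes share nearly all their coding sequence, the counting can itself set part of that ratio, and its part was not tested.

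Of the cluster, the promoter of HBD was among the RefSeq promoters at hand (GRCh38.p14). It is printed because HBD was lower along with its neighbours and its call depends on the fit. The stretch holds the 250 bases before the start of transcription, chr11:5234484-5234733 on the minus strand, 5′ to 3′, with matches to CCAAT, GATA (or TATC, the same letters read on the other strand) and ATAAA in capitals.
HBD: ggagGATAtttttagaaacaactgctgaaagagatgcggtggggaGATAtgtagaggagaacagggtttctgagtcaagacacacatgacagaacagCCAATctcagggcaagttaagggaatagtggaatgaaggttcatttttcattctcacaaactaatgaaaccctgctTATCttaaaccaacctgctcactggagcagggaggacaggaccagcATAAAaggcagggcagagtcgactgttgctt
On both strands it held 1 match to CCAAT, 3 to GATA, 1 to ATAAA and none to CACCC, and no matches overlapped. Among 35116 RefSeq promoters of the same length 32.0% hold CCAAT, 45.6% GATA, 32.7% ATAAA and 54.7% CACCC. A match describes letters, not a bound site.

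The same guide without the repressor domain left the cluster much nearer to the guideless level. In dCas9_CR4 the mean level of HBE1 was 359 ± 36.4 CPM, of HBG2 794 ± 98.5 CPM, of HBG1 729 ± 95.2 CPM, of HBBP1 20.5 ± 2.54 CPM and of HBD 11.6 ± 4.65 CPM (SD, n = 3). KRAB_CR4 was below it by 5.80-fold for HBE1 (edgeR adjusted p = 2.01e-07), 3.30-fold for HBG2 (1.96e-05), 2.83-fold for HBG1 (5.65e-05) and 4.76-fold for HBBP1 (0.000237). These 4 genes were all that passed in that comparison (0.0274% of those tested). HBD was 2.76-fold lower and did not pass (edgeR adjusted p = 1.00, and 0.000164 with the block). dCas9_CR4 itself differed from KRAB_no_gRNA by -0.35, -0.21, -0.19, -0.17 and -0.24 on the log2 scale for HBE1, HBG2, HBG1, HBBP1 and HBD. None of these passed (edgeR adjusted p = 1.00 for each), and this contrast shares its control libraries with the main one. The 95% interval lay below 0 for HBE1 (-0.63 to -0.07) and included 0 for HBG2, HBG1, HBBP1 and HBD. This contrast was not fitted with the block. The HBE1 to gamma-globin ratio was 0.228 to 0.243 in dCas9_CR4.

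With the second HS2 guide and the repressor, the cluster stood above its level with CR4 by amounts that did not pass. In KRAB_CR10 the mean level of HBE1 was 85.8 ± 10.8 CPM, of HBG2 355 ± 49.8 CPM and of HBG1 360 ± 42.9 CPM (SD, n = 3), and no gene passed in KRAB_CR4 against KRAB_CR10 (0% of those tested, with or without the block). KRAB_CR4 lay lower by 0.47 (95% interval -0.76 to -0.19) for HBE1, by 0.56 (-0.85 to -0.27) for HBG2 and by 0.49 (-0.77 to -0.20) for HBG1 on the log2 scale (edgeR adjusted p = 1.00 for each, and 0.382, 0.122 and 0.173 with the block). The difference was larger for HBBP1, at -0.86 (-1.35 to -0.38, edgeR adjusted p = 0.173 with the block). For HBD it was -0.46 (-1.45 to 0.52) and for HBB -0.57 (-2.10 to 0.96). HBBP1 averaged 7.82 ± 2.10 CPM and HBD 5.78 ± 2.55 CPM in KRAB_CR10 (SD, n = 3). The ratio of HBE1 to gamma-globin in KRAB_CR10 was 0.120 to 0.121, within the 0.112 to 0.134 of KRAB_CR4.

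On chromosome 11 the genes beyond the cluster did not pass. Of the 40 annotated genes on each side, 38 of the 80 had rows in the files and 11 had enough counts to test, all on the HBE1 side, where the locus control region lies. OR51B4, an olfactory receptor gene and the nearest tested gene beyond HBE1, gave 30.5, 28.01 and 29.4 CPM with the guide and 24.6, 29.6 and 26.9 CPM without it (log2 fold change 0.11, 95% interval -0.22 to 0.45). OR51B5, a neighbouring receptor gene, gave 69.4, 67.5 and 98.1 CPM against 66.0, 68.6 and 89.7 CPM (0.07, -0.40 to 0.53). OR51B2 between them averaged 1.77 CPM against 1.14 CPM (log2 fold change 0.63 ± 0.38 SE). In all 3 the groups overlapped. The median log2 fold change of the 11 was 0.32, with 10 above 0, against 0.01 over all tested genes. On the HBB side the most counts any gene had over the 6 libraries were 8, so a change there was not detectable at this depth. Without the cluster, the median of chromosome 11 was -0.01, within the range of the other chromosomes, which ran from -0.05 (chromosome 16) to 0.03 (chromosome 4).

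**Figure D2:**
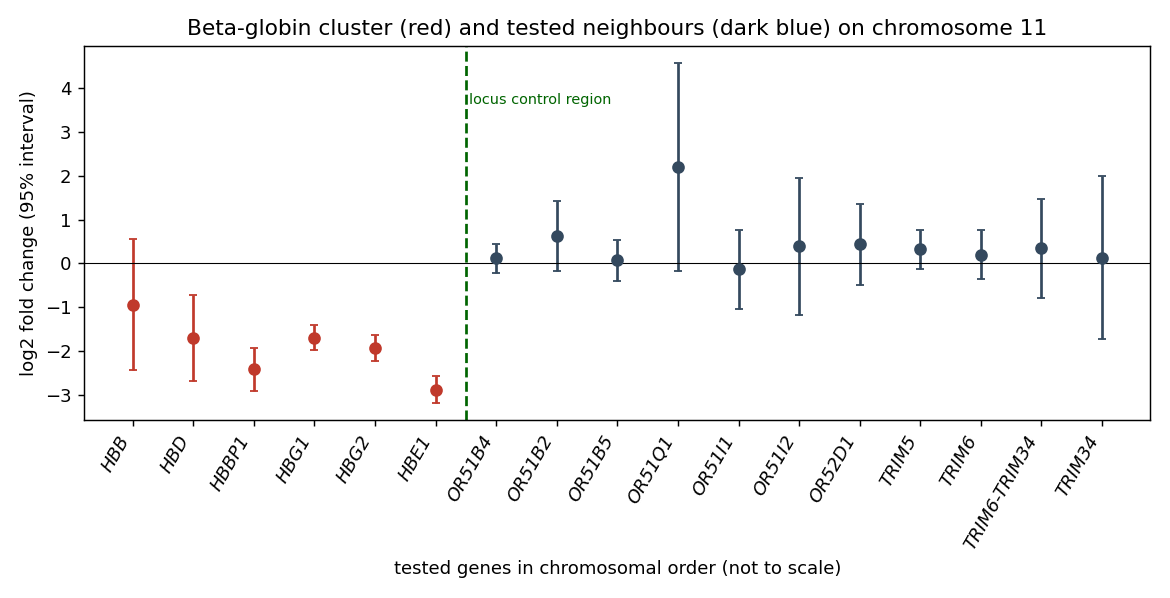
Log2 fold change, KRAB_CR4 minus KRAB_no_gRNA, with its 95% interval for the tested genes in their order on chromosome 11 (distances not to scale). The broken line marks where the locus control region lies. The genes on its left have values of -2.88 (HBE1) to -0.94 (HBB), and the intervals of the 11 tested genes on its right all include 0.

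In edgeR on the 15 lentiviral libraries no gene beyond the globins passed without the block, and 1, ACSM3, passed with it. Without the block the 95% interval of the fold change lay within 2-fold in either direction for 11264 of the 14599 genes (77.2%). For the rest the interval reached past 2-fold in at least 1 direction. That fit leaves out the pairing of same-numbered libraries. At an unadjusted p under 0.05 it held 2.05% of the genes, against 8.66% with the block (edgeR). Its intervals thus do not settle how alike the groups were. The genes with the smallest p in the higher direction, with a mean of at least 1 CPM, were CA1, TNS1, GDPGP1, an unnamed transcript (NM_001199814), SKIL, ALAS2, SLC39A9 and PCSK1N. None passed. CA1, a carbonic anhydrase of red cells, gave 14.1, 11.1 and 14.7 CPM with the guide and 5.93, 9.64 and 7.18 CPM without it. Its groups did not overlap, and its log2 fold change was 0.81 ± 0.18 (SE, n = 3 per group, edgeR adjusted p = 1.00, and 0.110 with the block). ALAS2, which starts haem synthesis in red cells, gave 41.5, 31.6 and 30.1 CPM against 24.6, 26.9 and 21.8 CPM, a log2 fold change of 0.49 ± 0.15 (SE, n = 3 per group, edgeR adjusted p = 1.00). SKIL, a repressor of SMAD signalling, averaged 32.3 CPM against 23.8 CPM, and TNS1, a focal adhesion protein, 9.60 CPM against 5.57 CPM. In dCas9_CR4 and KRAB_CR10 the means were 9.94 and 13.8 CPM for CA1 and 36.7 and 31.5 CPM for ALAS2. They were 29.8 and 36.2 CPM for SKIL and 7.83 and 7.76 CPM for TNS1. Each of these means lay above that without a guide, so higher levels of these genes were not particular to KRAB_CR4.

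In the lower direction, with the same minimum of 1 CPM, the smallest p values outside the cluster belonged to CD99, GATA5, CKLF-CMTM1, ATP5ME, SNHG8, NDUFC1, TMA7 and SNHG5, and none passed in the fit of the 15 lentiviral libraries, with or without the block. CD99, a surface glycoprotein, averaged 27.6 ± 2.73 CPM with the guide and 38.3 ± 2.38 CPM without it (SD, n = 3). ATP5ME, a small subunit of ATP synthase, averaged 22.9 ± 5.19 CPM against 35.6 ± 8.12 CPM (SD, n = 3), and each numbered pair differed the same way, by -0.68, -0.64 and -0.58 on the log2 scale. When only the 2 compared groups were fitted with the block, ATP5ME passed (-0.64, edgeR adjusted p = 0.048). SNHG5 and SNHG8, host genes of small nucleolar RNAs, had log2 fold changes of -0.53 ± 0.17 and -0.58 ± 0.19 (SE). GATA5 rested on 0.514 to 2.05 CPM.

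ACSM3, a mitochondrial acyl-CoA synthetase, was the gene outside the cluster that passed in the blocked fit of the 15 lentiviral libraries. It stood at 104, 94.8 and 281 CPM with the guide and at 62.4, 49.6 and 128 CPM without it. The level was highest in library 3 of both groups, and the groups overlapped. Its log2 fold change was 1.00 ± 0.60 without the block (SE, n = 3 per group, edgeR adjusted p = 1.00) and 0.93 ± 0.12 with it (edgeR adjusted p = 0.00044), and the numbered pairs differed by 0.73, 0.93 and 1.13. Without KRAB_CR4 library 3 the unblocked value was 0.32 and without KRAB_no_gRNA library 3 it was 1.51, so the unblocked value depended on which library numbered 3 was left out. In libraries 1 and 2 alone ACSM3 was at 0.82 and did not pass (edgeR adjusted p = 0.170), nor did it in the blocked fit of all 18 libraries (0.92, edgeR adjusted p = 0.999).

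**Figure D3:**
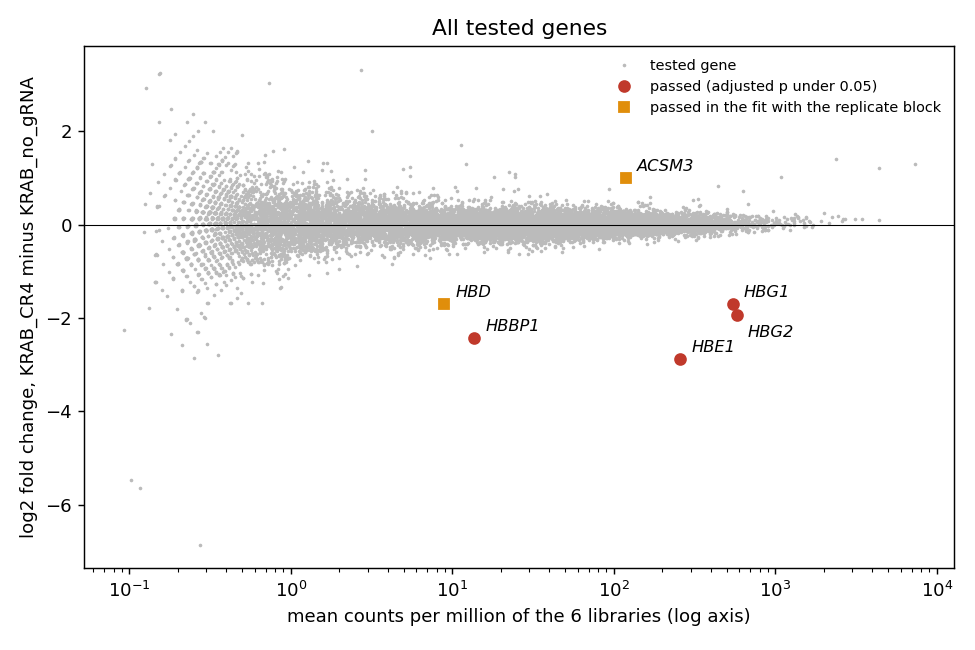
Log2 fold change of all 14599 tested genes against their mean level in CPM over the 6 libraries (log axis). Red circles are the 4 genes that passed in the fit without a block, orange squares HBD and ACSM3, which did not pass in that fit and passed with the library number as a block; the abundant grey points above 1 include the 3 ribosomal RNA rows.

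Lists of genes around red cell biology, the enhancer and the repressor were read by their counts and medians beside those of all genes (median log2 fold change 0.01, 7479 genes above 0 and 7120 below). No member of any list outside the beta cluster passed, with or without the block. Groups that did not overlap are counted below, and over all genes tested these came to 3.23% higher and 3.45% lower. Among 34 tested genes of the red cell membrane and of maturation 25 were above 0, with a median of 0.09. In 6 of them (EPB42, RHCE, RHD, XK, ICAM4 and CA1) the groups did not overlap and KRAB_CR4 was higher, and none was lower without overlap. EPB42 and DMTN, both of the membrane skeleton, averaged 5.34 CPM against 3.88 CPM and 41.5 CPM against 29.8 CPM. RHAG, a partner of the Rh proteins in the membrane, averaged 507 CPM against 478 CPM.

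Of 13 haem synthesis genes, all with intervals within 2-fold, ALAS2 and UROS were higher without overlap (3.23% of all genes), and the median was 0.03. UROD, a later enzyme of the pathway, gave 419.8, 381 and 439 CPM against 358, 373 and 430.5 CPM. The 16 iron genes had a median of 0.06 and overlapped in every case. NCOA4, the ferritin receptor of autophagy, averaged 453 CPM against 385 CPM, and the ferritin light chain FTL 1122 CPM against 1145 CPM.

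Transcription factors known to bind HS2 were expressed in both groups. All 20 had intervals within 2-fold and overlapping groups, with log2 fold changes from -0.18 (MAFK) to 0.22 (BACH1). GATA1 averaged 230.1 CPM against 203 CPM, NFE2 228 CPM against 219.8 CPM, KLF1 116 CPM against 112 CPM and TAL1 189 CPM against 176 CPM. BACH1, a repressor that competes with NFE2 at its sites, averaged 112 CPM against 95.6 CPM (0.22, 95% interval -0.05 to 0.50). With the block the interval of BACH1 was 0.005 to 0.44, and it did not pass (edgeR adjusted p = 0.566). The 19 tested genes of a list drawn up around fetal globin regulation had a median of 0.00 and intervals within 2-fold. A place on that list does not show that the gene itself acts on fetal globin. Of the 19, HBS1L was higher without overlap (3.23% of all genes), at 166 CPM against 145 CPM, and ZBTB7A, a gamma-globin repressor, averaged 76.6 CPM against 78.0 CPM. MYB averaged 276 CPM against 277 CPM.

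Genes of the machinery that KRAB recruits showed small differences. All 21 genes had intervals within 2-fold and the median was 0.04. TRIM28 gave 1082, 1017 and 877 CPM with the guide and 962, 1037 and 917 CPM without it, with overlap. SETDB1 averaged 67.7 CPM against 64.5 CPM. CBX3, an HP1 protein, had the smallest p, at 215 CPM against 252 CPM (-0.23, 95% interval -0.50 to 0.04). With the block the interval of CBX3 was -0.41 to -0.05, and it did not pass (edgeR adjusted p = 0.461). DNMT3B, a DNA methyltransferase, was lower without overlap (3.45% of all genes), at 210.3 CPM against 236 CPM. ZNF10, the gene whose KRAB domain is the usual source of such fusions, stood at 5.87 to 9.85 CPM with the guide and 5.56 to 7.67 CPM without it. In the dCas9 groups, which lack the domain, it stood at 5.67 to 7.70 CPM, so its rows do not mark the construct.

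Lists of other programmes gave no call. The 28 genes of the amino acid and unfolded protein response had 24 above 0 and a median of 0.20, which was 0.11 with the block, and all overlapped. The largest of these with over 1 CPM was INHBE, a secreted stress-induced factor, at 17.3 CPM against 7.06 CPM (log2 fold change 1.29 ± 1.04 SE), and HSP90B1, a chaperone of the endoplasmic reticulum, averaged 769.8 CPM against 721 CPM. Of 24 sterol genes 19 were above 0 (median 0.10), with SC5D at 52.0 CPM against 42.2 CPM. The medians were 0.10 for 19 interferon genes, 0.16 for 23 histone genes, 0.05 for 18 p53 targets and 0.04 for 16 genes of DNA damage and apoptosis. They were 0.04 for 26 genes of hypoxia and glycolysis, 0.02 for 18 of BCR-ABL and STAT5 signalling, and 0.00 for 34 of the cell cycle. Over all tested genes the groups did not overlap for 3.23% in the higher and 3.45% in the lower direction. No result about a list is drawn from the members named here. Without overlap, H1-5 and H2BC7 were higher among the histone genes, FANCD2 was higher and GADD45B lower in the DNA damage list, and TP53I3 was lower among the p53 targets. In the hypoxia list P4HA1 was higher and ANKRD37 and PFKP lower, and in the BCR-ABL list SPRY4 was higher. In the cell cycle list MKI67, a proliferation marker, was the 1 such gene of 34, higher at 389 ± 37.7 CPM against 293 ± 89.3 CPM (SD, n = 3). Its levels without a guide were 335, 191 and 354 CPM. Its log2 fold change was 0.41 (95% interval -0.12 to 0.94). Of 20 immediate early genes, with a median of -0.02, FOSL2, JUND and KLF4 were lower without overlap (3.45% of all genes). Among 9 megakaryocyte markers (median -0.01) TUBB1 was higher without overlap, at 14.3 CPM against 11.3 CPM. Among 9 myeloid and lymphoid markers (median -0.11) PTPRC was higher without overlap, at 94.3 CPM against 72.9 CPM, and CD8A, with at most 22 counts in a library, was lower.

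**Figure D4:**
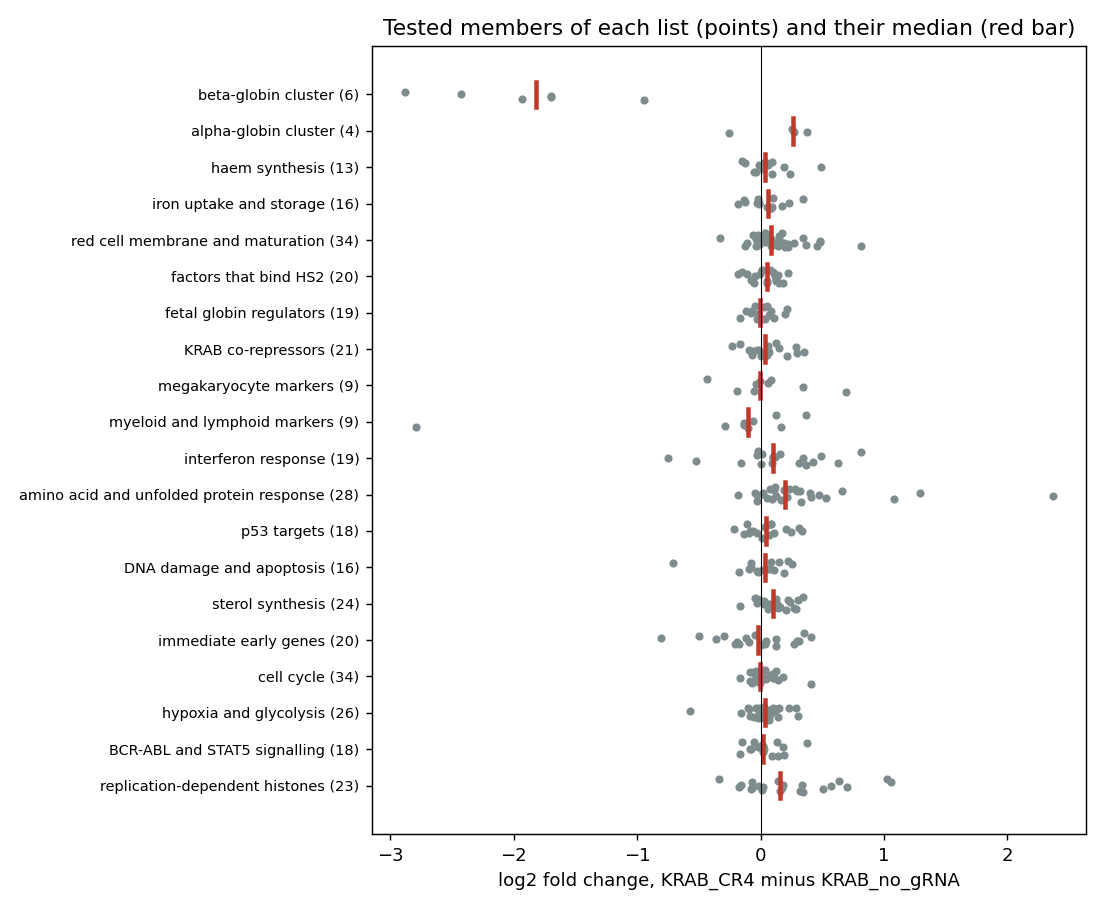
Log2 fold change of each tested member (points) of 20 gene lists, with the list median as a red bar and the number tested in brackets. All 6 points of the beta-globin cluster lie below 0, at -2.88 to -0.94, and the medians of the other lists lie between -0.11 and 0.26.

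Transcript length moved with the comparison, in every numbered pair. The median log2 fold change of genes outside the globin clusters was -0.18 for 213 genes with transcripts under 600 bases, -0.14 for 687 of 600 to 1000 bases and 0.06 for 4333 over 4000 bases. Genes lower at an unadjusted p under 0.05 had a median length of 1316 bases, and those higher one of 3949 bases, against 2867 bases for all tested genes. Several of the genes named above as lower are short, ATP5ME (365 bases) and SNHG5 (430 bases) among them. The beta-like genes are short too, with HBE1 at 616, HBG2 at 614, HBG1 at 779, HBBP1 at 439 and HBD at 785 bases. The lowest log2 fold change of any other gene under 1000 bases with a mean of at least 10 CPM was -0.63. The alpha-like genes, at 536 to 755 bases, did not pass in either direction. With the trend on length removed, a check added after the data were seen, HBE1 was at -2.73, HBG2 at -1.77, HBG1 at -1.56, HBBP1 at -2.21 and HBD at -1.56, and the same number of genes, 4, passed.

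**Figure D5:**
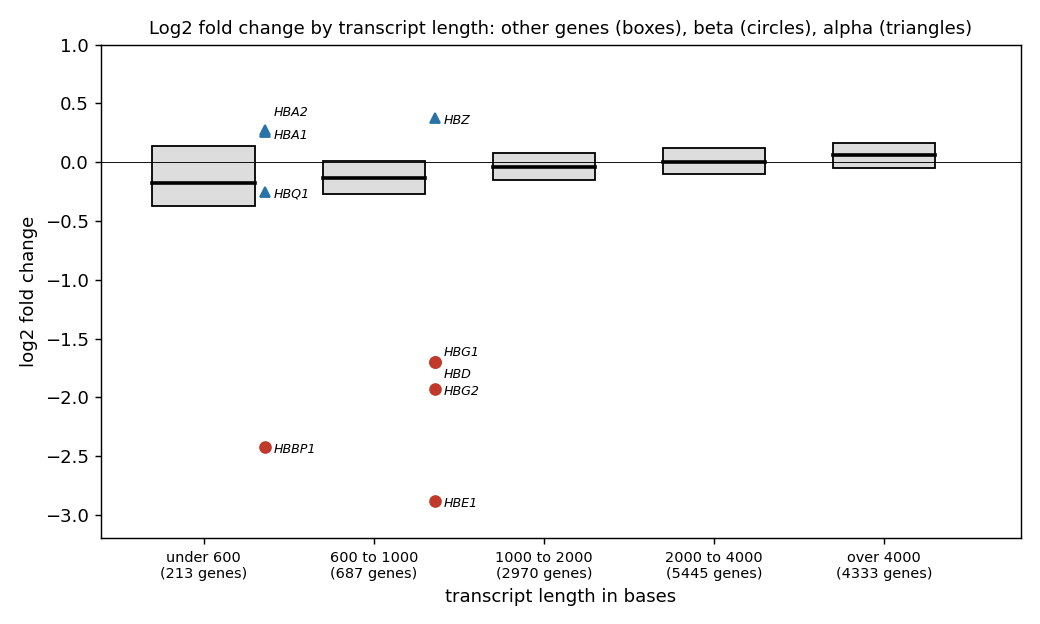
Log2 fold change, KRAB_CR4 minus KRAB_no_gRNA, by transcript length in bases. Boxes span the quartiles and their bar is the median of genes outside the globin clusters; red circles are beta-like and blue triangles alpha-like genes, placed in their length class. The medians climb from -0.18 to 0.06 with length, and the beta-like genes lie far below the boxes of their classes.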

How the data were processed

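RNA-seq counts of 15 lentiviral K562 libraries were used, 3 in each of 5 groups, and 6 of them form the comparison. The authors deposited raw counts, 1 file per library with 40709 RefSeq transcript accessions, which had 0 odd values. Polyadenylated RNA was made into Nextera libraries, per the labels' protocols, which keep no record of strand, so a gene and its antisense partner cannot be told apart. Bowtie2, SAMtools, Picard, R 3.1.2, DESeq and hg19 are named per the submitters' processing notes, and the role of each, the counting tool and the treatment of reads with several alignments are not given in the sources used here. Transcripts were summed to 24395 genes, with names for 99.02% of counts from RefSeq (GRCh38.p14) and GENCODE v29 tables, and 869 accessions were left under their own name.

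Genes were filtered with filterByExpr (14599 kept), scaled by TMM and tested with the quasi-likelihood test of edgeR 4.0.16 (R 4.3.3), with 1 mean per group over the 15 libraries, no block, and Benjamini-Hochberg adjustment at 0.05. The biological coefficient of variation was 20.4%. The 3 untransduced libraries, which carry no vector, were left out of this fit and enter an alternative. Standard errors come from the test statistic. CPM values were computed from the deposited counts. The scripts were tested on simulated data. Counts carry no molecular identifiers, so precision covers library spread and counting error only.

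The numbers were read as pairing the libraries: deviations from group means over 12601 genes correlated above 0.1 in 30 of 30 same-numbered pairs (0.15 to 0.84) and in 18 of 60 others. Between the 2 compared groups the same-numbered values were 0.37 to 0.77. Alternatives were the block, other samples in the fit, DESeq2 1.42.0, other scalings and filters, halved counts, unsummed transcripts, removal of a trend on length (13658 genes with a length) and leaving out each library.

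Genes named are the globin genes, ZNF10, genes that passed with or without the block, the 8 smallest p in each direction with a mean of at least 1 CPM, 2 members of each list and 3 neighbours on chromosome 11. Genes named beyond these (among them those counted as not overlapping, INHBE, DMTN, GATA1, NFE2, KLF1, TAL1, ZBTB7A, MYB, SETDB1 and SERPINB8) were chosen after their values were seen. A gene that this rule picks and a marker are not reported here. The comparison, its lists and its tests were chosen with earlier results of these data known.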

Additional observations from a re-analysis of the deposited data

How the results depend on the processing

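HBE1, HBG2 and HBG1 passed in every alternative fitted on genes. HBE1 ranged from -2.97 to -2.82 on the log2 scale when each library was left out in turn. The count of genes that passed was 4, and 4 with each library left out, 3 with all 18 libraries with or without the replicate block (HBBP1 then had an adjusted p of 0.241 without and 0.161 with the block), 5 in libraries 1 and 2 only, and 5 with DESeq2. DESeq2 added SERPINB8, which is listed at 0 counts in the 3 KRAB_CR4 libraries. With the replicate block it was 6, and 7 when only the 2 compared groups were fitted with the block, where HBD, ACSM3 and ATP5ME joined. Against dCas9_CR4, HBBP1 did not pass with all 18 libraries (adjusted p = 0.403). The cause of these differences was not tested. HBD also passed against dCas9_CR4 with the replicate block (edgeR adjusted p = 0.000164). In the gene contrasts fitted with it, the block changed no other call named in the report. The contrast of dCas9_CR4 with KRAB_no_gRNA was fitted without it only.

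Some genes that did not pass and lie near 0 changed sign. MCM7, at 0.00, was at -0.0081 with all 18 libraries, -0.0071 with only the 2 groups, -0.00020 with the block, -0.0077 with the 2 groups and the block, -0.0013 with upper quartile scaling, -0.0057 with the length trend removed, -0.0070 with that and the block, and -0.0086 with 18 libraries and the block. In libraries 1 and 2 only, H2BC12 was at 0.033. With the length trend removed, without and with the block, FTL was at 0.089 and 0.090, H2BC12 at 0.215 and 0.216, CHD4 at -0.030 and -0.045, and STAT5A at -0.013 and -0.013. Leaving out each library gave ranges of -0.126 to 0.066 for FTL, -0.12 to 0.22 for CHD4, -0.050 to 0.112 for TRIM28, -0.058 to 0.055 for MCM7, -0.018 to 0.068 for STAT5A, -0.080 to 0.029 for H2BC12, -0.20 to 0.42 for IFITM1, -0.12 to 0.22 for OR51B5, -0.117 to 0.017 for TCF3, -0.731 to 0.0093 for GP1BB and, against KRAB_CR10, -1.56 to 0.20 for HBB. Depth limited HBB and the neighbours on its side of the cluster.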
